A study of Mus musculus with 12 samples.

Results

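Genes of the actin and myosin cytoskeleton were followed in basal cells of mouse tail epidermis around a wound. The group held 38 genes chosen by name, with earlier results of these data known. Fscn1, Cald1, Myo5b, Myh9, Tpm1 and Tpm2 among them had been named by the study as higher at the leading edge. That list came from other arrays, of α5-integrin-positive cells of the leading edge at D4 after wounding, compared with the proliferative hub. The cells on the arrays used here were not sorted on α5-integrin, so the values below are not the same measurement. Of the 38, 34 were paired with a probe set among 17097 genes tested. Capza1, Actn4, Tagln2 and Myl12b were not analysed here. The 34 genes had 78 of the 28898 probe sets annotated to a single gene, and the set with the greatest mean intensity across the 12 arrays stood for its gene. The other 44 sets, which belong to 23 of the genes, are described separately.

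Actin filaments grow from a pool of monomers that profilin and the thymosins hold ready, and are branched by the Arp2/3 complex, bundled by fascin and α-actinin and coated by tropomyosins and caldesmon. Non-muscle myosin II pulls on these filaments, and vinculin, talin and zyxin tie them to the membrane at adhesions. In migrating epithelial sheets this machinery is known for driving protrusions at the front and tension across the cells behind it.

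CD1 mice, an outbred strain, received a wound of 3 mm in the tail skin. At D4 and D7 after wounding the leading edge (LE) was cut out with a punch of 4 mm, the proliferative hub with a punch of 6 mm, and tail skin away from the wound of such animals gave the control. Each sample pooled 5 mice, from which 300 living cells with α6-integrin and without CD34 were sorted. The controls went through the same pooling and sort, and the size of the piece cut for them is not given. There were 12 arrays, 2 for each region and day. No genotype besides the strain and no age of these mice are given in the labels. The zones were set by distance alone, so a punch can hold cells of the neighbouring zone. The arrays of a group are labelled biological replicates, and nothing says whether they came from separate pools, so each SE and p measures the spread between these samples, which may be technical. Their number limits the precision of every value.

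The array medians were 5.40 to 5.47 at D4 and 4.25 to 4.28 at D7 in log2 intensity, so levels were set against each other within a day and the days by their fold changes. Between the 2 arrays of a group r was 0.988 to 0.993 over probe sets, which are no replicates. For the 34 cytoskeletal genes the median gap between the 2 arrays of a group was 0.088 to 0.163 on the log2 scale. The largest gaps were those of Anln in control skin at D4 (0.95) and at D7 (1.05), Myo5b in the LE at D4 (1.18) and Cald1 in the hub at D7 (0.63). All 6 markers of basal keratinocytes lay above the median of the genes tested on both arrays of every group, with their mean 6.05 to 6.46 above it. Of 6 leukocyte and 5 skeletal muscle markers, 0 did so in any group. The mean of 4 melanocyte genes lay 2.86 above that median on replicate 2 of the hub at D4 and 1.65 above it on replicate 1 of control at D4, and between -0.91 and -0.43 on the other 10 arrays.

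In the LE, all 5 genes for filament-coating proteins were called higher than in control skin on both days with the probe sets used. So were 2 of 5 for crosslinking and bundling proteins (Fscn1 and Actn1) and 2 of 4 of the adhesion plaque (Vcl and Pdlim7). Those for β-actin and γ-actin were not called. With all its sets averaged Tpm1, a filament-coating gene, was -0.03 at D4 and -0.14 at D7, neither called (adjusted p = 0.966 and 0.778 in limma). At D4, limma called 19 of the 34 genes higher and 0 lower (23 and 1 where unadjusted p was under 0.05), whereas 8.3% of all genes were called higher and 5.83% lower. At D7 it called 16 higher and 0 lower (19 and 2 unadjusted), against 9.25% and 5.37% of all genes. The median log2 fold change of the 34 genes was 0.54 at D4 and 0.34 at D7, and over all genes it was 0.03 and 0.02. Cells of a type in differing number and differing RNA per cell cannot be told apart in such sorted bulk samples.

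The calls covered 15 genes on both days, where 5.21% of all genes were called higher on both. These were Pfn1, Cap1, Tmsb10, Arpc5, Actn1, Fscn1, Cald1, Tpm1, Tpm2, Tpm3, Tpm4, Myh9, Myo5b, Vcl and Pdlim7. Cttn, Flna, Palld and Myo10 were called at D4 alone (3.09% of all genes) and Myl9 at D7 alone (4.04%). The remaining 14 were called on neither day, as were 79.8% of all genes. An effect called on 1 day only was not shown to differ between the days, since limma called 0 of the 34 genes in the test of the LE change at D7 against that at D4 (1 higher and 6 lower unadjusted), and 0.0292% of all genes. In the same test of the hub change limma called 0 of the 34 (0 and 2 unadjusted) and 0% of all genes, and for the LE against the hub 0 of the 34 (0 and 3 unadjusted) and 0.0175% of all genes.

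**Figure D1:**
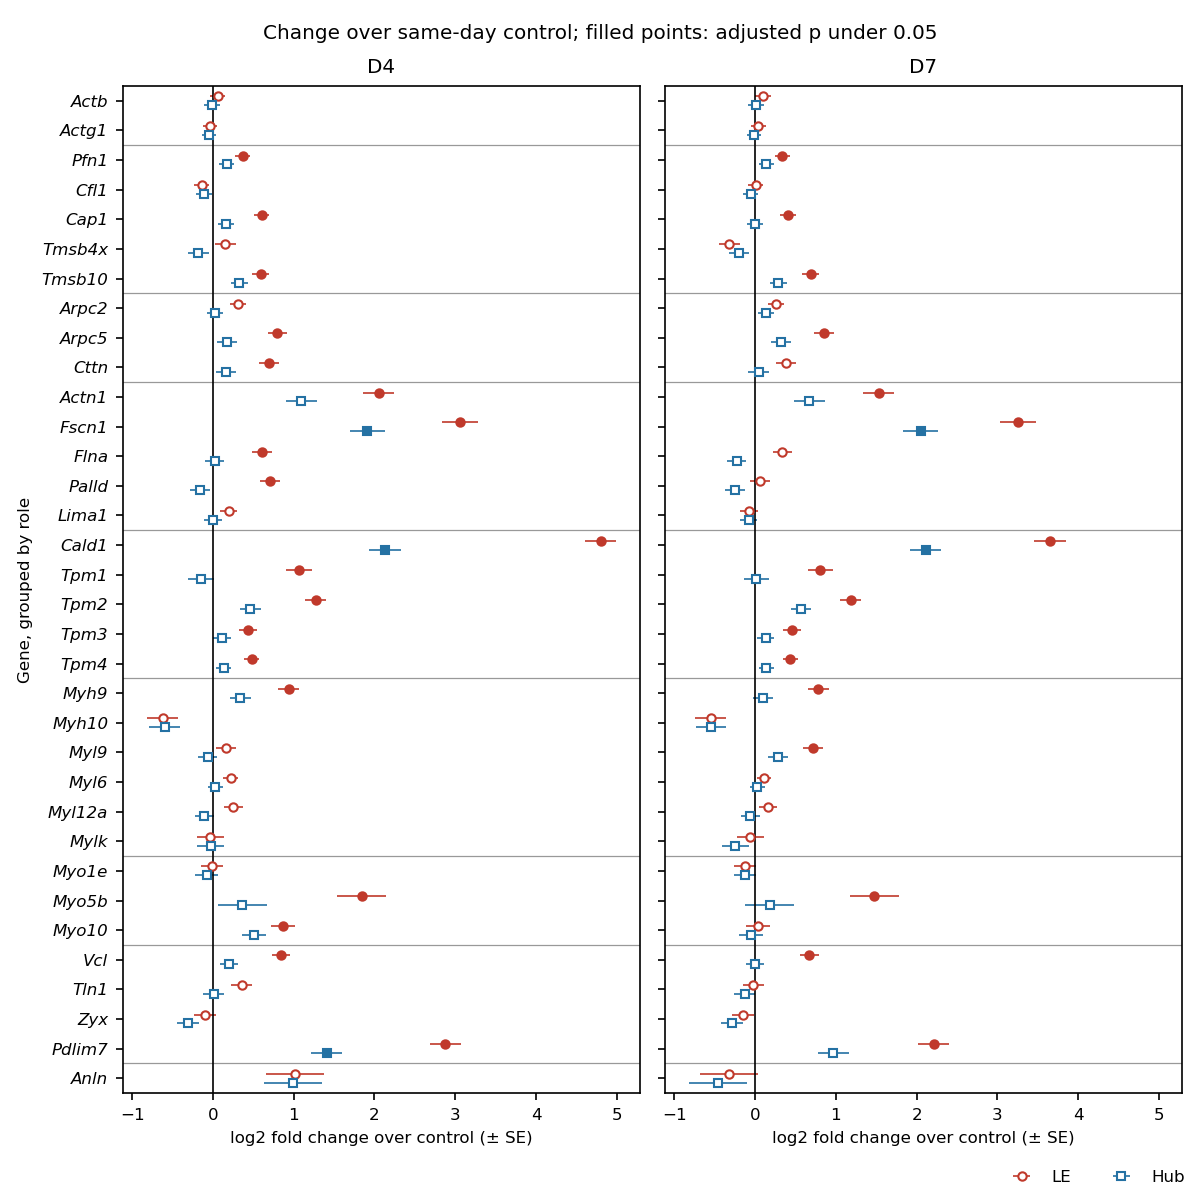
Log2 fold change over same-day control (horizontal axis, with SE) of the 34 genes, grouped by role, in the LE (circles) and the hub (squares) at D4 (left) and D7 (right); a filled point has an adjusted p under 0.05. There are 19 filled circles at D4 and 16 at D7, with 3 and 2 filled squares.

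In the hub, 3 of the 34 genes were called higher than control at D4 (Fscn1, Cald1 and Pdlim7) and 2 at D7 (Fscn1 and Cald1), and 0 were lower on either day. Of all genes 0.222% were called higher and 0.105% lower at D4, and 0.591% and 0.17% at D7. Unadjusted, limma had 9 of the 34 higher with 1 lower at D4 and 8 with 1 at D7. The LE and the hub were set against the same control arrays of each day. The median log2 fold change was 0.07 at D4 and 0.01 at D7. Without hub D4 replicate 1, or in a fit on the 6 arrays of D4 alone, the count at D4 was 1, and without hub D7 replicate 2 the count at D7 was 1. Without the arrays with raised melanocyte genes it was 2 (hub D4 replicate 2) and 4 (control D4 replicate 1), and in the LE at D4 it was 18 without that control array.

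Set directly against the hub, the LE was higher in 14 of the 34 genes at D4 and in 9 at D7, and lower in 0 (22 and 18 higher and 0 lower unadjusted in limma). Of all genes 2.61% were called higher and 2.15% lower at D4, and 1.33% and 1.4% at D7. The 14 were Cap1, Arpc5, Cttn, Actn1, Fscn1, Flna, Palld, Cald1, Tpm1, Tpm2, Myh9, Myo5b, Vcl and Pdlim7. The 9 were Actn1, Fscn1, Flna, Cald1, Tpm1, Tpm2, Myh9, Vcl and Pdlim7. In a fit on the 6 arrays of D4 alone 5 genes were called. These counts rest on few arrays: at D4 they were 5 without LE D4 replicate 1, 9 without hub D4 replicate 1 and 4 without hub D4 replicate 2. At D7 they were 0 without LE D7 replicate 1, 3 without LE D7 replicate 2, 2 without hub D7 replicate 1, 1 without hub D7 replicate 2 and 5 without either control array of that day.

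The order of the regions on single arrays was also counted. This count, chosen after the values were seen, took the genes for which both LE arrays lay above both hub arrays and these above both control arrays. This held for 14 of the 34 genes at D4 (6.78% of all genes) and for 13 at D7 (9.43%). It held on both days for 8 of the 34 genes, Pfn1, Tmsb10, Actn1, Fscn1, Cald1, Tpm2, Tpm4 and Pdlim7, and for 3.37% of all genes. The opposite order on both days held for 0 of the 34 and for 1.68% of all genes. For Tpm1 on both days, and for Vcl and Myh9 at D7, the LE arrays lay above all others while hub and control arrays overlapped.

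**Figure D2:**
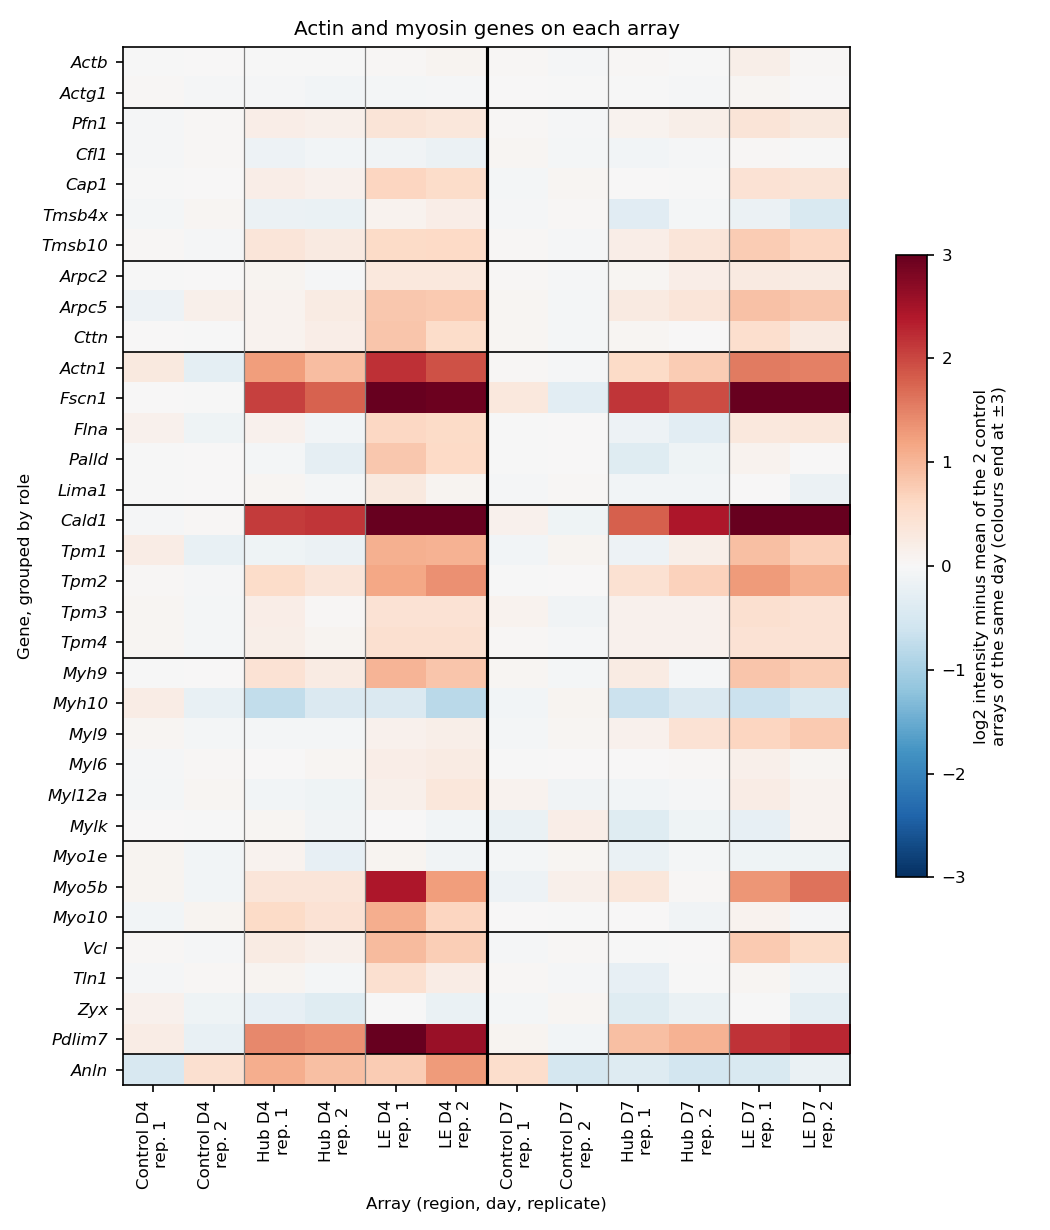
Log2 intensity of each of the 34 genes (rows, grouped by role) on each of the 12 arrays (columns) minus the mean of the 2 control arrays of the same day, with colours ending at 3 in either direction. Cald1, Fscn1, Pdlim7 and Actn1 are darkest on the LE arrays and paler on the hub arrays, and the rows of Actb and Actg1 are close to white throughout.

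The bases around the start sites of the genes with the largest changes and of Vcl, a gene with a CArG box, are shown so that the sites counted in them can be seen. They are RefSeq windows of build GRCm38.p6, from 250 bases before to 50 after an annotated start, 5′ to 3′ on the strand of the gene. Capitals mark the searched motifs, and a window in lower case alone holds none of them. The windows lie at chr6:34598254-34598553 (plus strand) and chr6:34709194-34709493 (plus strand) for Cald1, chr5:142960105-142960404 (plus strand) for Fscn1, chr13:55513397-55513696 (minus strand) for Pdlim7 and chr14:20929148-20929447 (plus strand) for Vcl.
Cald1 first window: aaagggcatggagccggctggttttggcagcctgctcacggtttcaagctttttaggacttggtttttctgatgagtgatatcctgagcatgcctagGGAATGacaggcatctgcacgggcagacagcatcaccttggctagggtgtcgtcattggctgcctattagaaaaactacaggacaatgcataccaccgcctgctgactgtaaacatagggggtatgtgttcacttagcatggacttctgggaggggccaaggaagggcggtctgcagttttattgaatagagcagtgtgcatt
Cald1 second window: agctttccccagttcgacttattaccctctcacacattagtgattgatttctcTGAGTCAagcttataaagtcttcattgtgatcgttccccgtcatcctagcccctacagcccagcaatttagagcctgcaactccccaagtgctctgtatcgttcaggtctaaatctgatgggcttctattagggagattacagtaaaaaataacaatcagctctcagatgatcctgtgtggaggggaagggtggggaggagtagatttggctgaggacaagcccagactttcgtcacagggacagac
Fscn1: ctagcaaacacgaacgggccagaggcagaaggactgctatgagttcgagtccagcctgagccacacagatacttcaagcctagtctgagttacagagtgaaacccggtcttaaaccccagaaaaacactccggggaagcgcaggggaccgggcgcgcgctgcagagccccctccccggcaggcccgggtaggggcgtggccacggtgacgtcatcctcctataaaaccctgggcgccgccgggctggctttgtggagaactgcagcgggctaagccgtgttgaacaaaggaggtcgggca
Pdlim7: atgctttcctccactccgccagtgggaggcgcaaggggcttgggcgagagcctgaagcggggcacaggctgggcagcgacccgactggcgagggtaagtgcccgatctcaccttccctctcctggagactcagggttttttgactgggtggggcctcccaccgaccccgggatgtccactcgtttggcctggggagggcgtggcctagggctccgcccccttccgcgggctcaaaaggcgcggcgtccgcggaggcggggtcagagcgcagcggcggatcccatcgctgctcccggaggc
Vcl: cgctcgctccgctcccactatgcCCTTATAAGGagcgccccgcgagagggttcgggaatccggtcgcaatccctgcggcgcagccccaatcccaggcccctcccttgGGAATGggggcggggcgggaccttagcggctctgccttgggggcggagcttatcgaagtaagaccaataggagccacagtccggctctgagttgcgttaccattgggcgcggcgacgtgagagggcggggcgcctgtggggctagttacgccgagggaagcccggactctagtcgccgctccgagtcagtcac

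Windows were matched for 31 of the 34 genes, 39 windows in all, and were searched on both strands for the CArG box bound by serum response factor, TGANTCA bound by AP-1 and GGAATG bound by TEAD factors. The motifs do not overlap in these windows. The CArG box stood in 6 of the 39 windows (Actg1, Lima1, Myl6, Myl9, Myo1e and Vcl) and in 1.63% of 32851 windows of all genes. Of the windows of genes called higher in the LE on both days 1 of 18 held it, and of those called on neither day 4 of 14. TGANTCA stood in 5 windows (Cald1, Myl12a, Mylk, Palld and Zyx), against 7.81% of all, and GGAATG in 11, against 14.7%. The windows of Fscn1 and Pdlim7 held none of the 3 motifs. These matches are counts of letters and say nothing of binding.

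Caldesmon (Cald1) binds actin, tropomyosin and myosin and restrains the myosin motor, and with the probe sets used it had the largest change of the 34 genes in the LE on both days, while with all sets of a gene averaged Fscn1 exceeded it (2.72 against 2.43 at D4 and 3.21 against 1.88 at D7, log2). At D4 it read 9.84 and 9.98 in log2 intensity on the LE arrays (replicates 1 and 2), 7.22 and 7.26 on the hub arrays and 5.06 and 5.16 on the control arrays. At D7 the readings were 8.64 and 8.31 in the LE, 6.62 and 7.25 in the hub and 4.95 and 4.70 in control. The LE was high, the hub intermediate and control low, with no overlap on either day. The LE exceeded control 27.8-fold at D4 and 12.6-fold at D7, and the hub exceeded it 4.38-fold and 4.32-fold. The LE also exceeded the hub, at D4 by 2.67 and at D7 by 1.54 on the log2 scale, each with a standard error of 0.19 (adjusted p = 0.000194 and 0.00462), the latter not called without LE D7 replicate 1 (adjusted p = 0.0553). The control readings at D4 lay below the array medians (5.42 and 5.44), and those at D7 above them (4.28 on either array). The values used carry no detection call. On both days, then, the folds over control are over a level not shown to be above background. With all probe sets averaged the LE excess was 2.43 and 1.88 on the log2 scale and still called (adjusted p = 1.51e-05 and 8.54e-05). Averaged in the same way, its hub value at D4 was 0.74 and not called (adjusted p = 0.0822). The excess over control in the LE was smaller at D7 than at D4 by 1.15 (SE 0.28), and this difference between the days was not called (adjusted p = 0.287).

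Fascin (Fscn1) packs parallel filaments into the tight bundles of filopodia. Its LE arrays read 11.23 and 11.02 at D4, its hub arrays 10.12 and 9.83 and those of control 8.07 and 8.06. At D7 they read 10.34 and 9.86, 8.99 and 8.80, and 7.16 and 6.53 in the same order. Again the 3 regions were apart on both days, with the hub between the other two and nearer to the LE than to control. The LE exceeded control 8.32-fold at D4 and 9.55-fold at D7 and the hub 2.21-fold (adjusted p = 0.0167) and 2.31-fold (adjusted p = 0.0234). The hub exceeded control 3.77-fold (adjusted p = 0.0155) and 4.13-fold (adjusted p = 0.00539). Calls of Fscn1 in the hub were lost without hub D4 replicate 1 (adjusted p = 0.137) and hub D7 replicate 2 (0.0665). Those of the LE against the hub failed in 2 (D4) and 3 (D7) of 12 fits that omitted an array, with an adjusted p of 0.127 without hub D4 replicate 2 and 0.176 without LE D7 replicate 1.

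Pdlim7, a protein with PDZ and LIM domains that sits on actin filaments at adhesions and stress fibres, behaved in the same way. Its LE arrays read 10.44 and 9.85 at D4, its hub arrays 8.70 and 8.64 and those of control 7.48 and 7.05. At D7 they read 8.64 and 8.74, 7.39 and 7.52, and 6.56 and 6.41. The regions did not overlap on either day. Over control the LE was higher by 2.88 and 2.21 on the log2 scale, each with a standard error of 0.19 (adjusted p = 2.6e-05 and 0.00014). The hub excess of Pdlim7 at D4 was 1.41 (adjusted p = 0.021), a call lost in 5 of 12 fits without an array (adjusted p = 0.182 without hub D4 replicate 1). At D7 it was 0.97 in the hub and not called (adjusted p = 0.0605), though it was with the replicate numbers as a block (adjusted p = 0.0331). In a fit on the 6 arrays of D4 alone the hub call of Pdlim7 was lost (adjusted p = 0.222), and so was its call against the hub (0.0514). The LE exceeded the hub 2.77-fold (adjusted p = 0.00264) and 2.37-fold (adjusted p = 0.0119, and 0.0849 without LE D7 replicate 1).

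**Figure D3:**
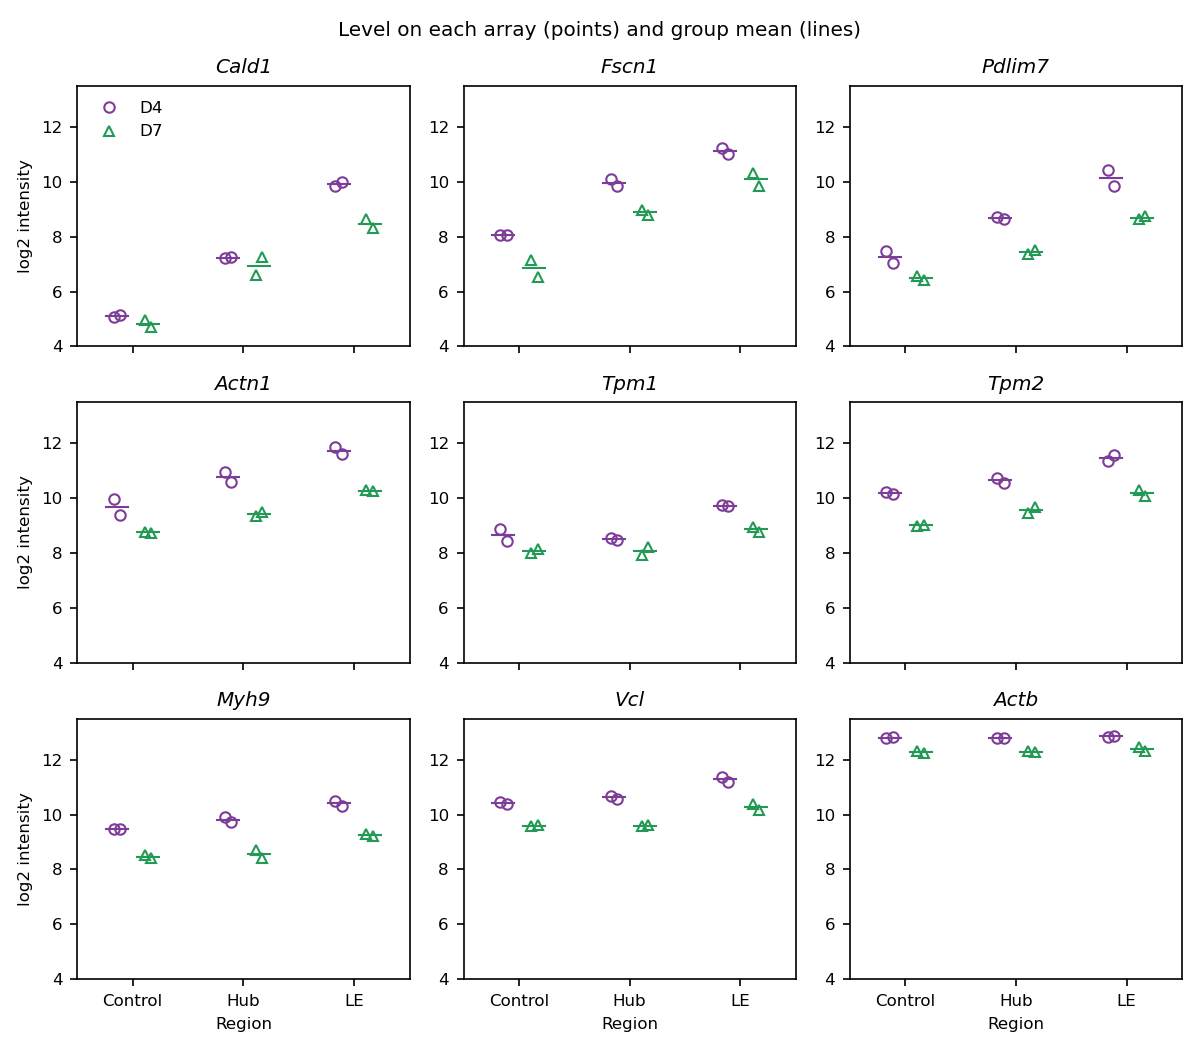
Log2 intensity (vertical axis) of 9 genes on each array in control, hub and LE at D4 (circles) and D7 (triangles), with lines at the group means; levels of different genes and of different days are not comparable. Cald1, Fscn1, Pdlim7 and Actn1 climb from control through hub to LE, hub and control overlap for Tpm1, and Actb is level.

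Among crosslinking and bundling proteins, Fscn1 included, 4 of 5 measured genes were called in the LE at D4 and 2 at D7. By the same test 8.3% of all genes were higher at D4 and 9.25% at D7. α-Actinin-1 (Actn1), which crosslinks antiparallel filaments and anchors them at adhesions, read 11.88 and 11.60 in the LE at D4, 10.95 and 10.61 in the hub and 9.98 and 9.40 in control. At D7 it read 10.30 and 10.26, 9.34 and 9.51, and 8.79 and 8.72. The order LE, hub, control held on every array. Actn1 rose in the LE by 2.05 and 1.53 on the log2 scale, with a standard error of 0.19 (adjusted p = 0.000148 and 0.000849). In the hub it was 1.09 (adjusted p = 0.0541) and 0.67 (adjusted p = 0.161), not called on either day, and the replicate block moved the former to an adjusted p of 0.0171. Its excess in the LE over the hub was 0.96 (adjusted p = 0.0197) and 0.86 (adjusted p = 0.0476), lost in 2 and 8 of 12 fits without an array, with an adjusted p of 0.151 without hub D4 replicate 2 and 0.23 without LE D7 replicate 1.

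Filamin A (Flna), which joins filaments into orthogonal networks, rose in the LE by 0.61 at D4 (adjusted p = 0.00841), and its D7 value was 0.34 (adjusted p = 0.0927). Without control D4 replicate 2 the D4 value was not called (adjusted p = 0.0619). Palladin (Palld), a scaffold that binds α-actinin, rose by 0.71 at D4 (adjusted p = 0.00449), and its D7 value was 0.06 (adjusted p = 0.849). With all its probe sets averaged the D4 value was 0.18 and not called (adjusted p = 0.655). The change of Palld between the days, -0.65 (SE 0.18), was not called (adjusted p = 0.342). Lima1, which stabilises filament bundles, was 0.19 and -0.08 and was not called on either day.

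With the probe sets used, all 5 filament-coating genes rose in the LE on both days, as did 5.21% of all genes. Besides Cald1 these are the 4 tropomyosins, which lie along the filament and set which other proteins reach it. Tpm1 read 9.75 and 9.72 in the LE at D4, 8.55 and 8.49 in the hub and 8.89 and 8.45 in control. At D7 it read 8.96 and 8.78, 7.92 and 8.24, and 7.99 and 8.14. The LE arrays stood above the rest, and hub and control overlapped on both days. Tpm1 rose in the LE 2.09-fold (adjusted p = 0.00198) and 1.75-fold (adjusted p = 0.00863, and 0.0752 without LE D7 replicate 1), and its hub value was -0.15 and 0.02 on the log2 scale. With the 3 probe sets of Tpm1 averaged the LE value turned to -0.03 and -0.14 (adjusted p = 0.966 and 0.778). Against the hub the LE was higher by 1.21 and 0.79 with the set used (adjusted p = 0.00266 and 0.0342). The latter was lost in 6 of 12 fits without an array, with an adjusted p of 0.218 without LE D7 replicate 1.

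Tpm2 read 11.37 and 11.57 in the LE at D4, 10.75 and 10.57 in the hub and 10.22 and 10.17 in control. At D7 it read 10.30 and 10.09, 9.46 and 9.70, and 9.01 and 9.02. Here the hub lay between the LE and control on every array. The rise in the LE was 2.42-fold (adjusted p = 0.00023) and 2.27-fold (adjusted p = 0.000448). In the hub Tpm2 was 0.46 (adjusted p = 0.186) and 0.57 (adjusted p = 0.0951) on the log2 scale and not called. Set against the hub, the LE excess of Tpm2 was 0.81 (adjusted p = 0.00721, and 0.0681 without hub D4 replicate 2) and 0.61 (adjusted p = 0.0398), the latter not called with the replicate block (adjusted p = 0.0569) or without LE D7 replicate 1 (0.239). Tpm3 and Tpm4 changed less, with log2 fold changes of 0.43 and 0.48 at D4 and 0.46 and 0.44 at D7. The calls of Tpm3 and Tpm4 at D4 were lost without control D4 replicate 2 (adjusted p = 0.129 and 0.0563), and those at D7 without control D7 replicate 2 (0.121 and 0.0771).

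Smooth muscle and myofibroblasts also express Cald1, Tpm1, Tpm2, Myl9 and Vcl, so markers of these cells were read on the same arrays. Acta2, smooth muscle α-actin, read 8.67 and 9.30 in the LE at D4 against 7.02 and 6.74 in control, and 7.89 and 7.76 at D7 against 5.47 and 5.15. Acta2 was higher in the LE than in control by 2.11 (adjusted p = 0.00198) and 2.51 (adjusted p = 0.000902), and its excess over the hub was 2.03 and 2.33 (adjusted p = 0.00658 and 0.00689). The other 4 markers measured, Myh11, Cnn1, Des and Actg2, lay below the median of the genes tested in every group, and 0 of the 4 were called in any comparison. The mean of the 5 stood at -0.42 to -0.38 relative to that median on the LE arrays and at -0.98 to -0.72 on the hub and control arrays. Of 6 fibroblast markers 0 stood above it on both arrays of an LE or hub group and 1 (Dcn) on those of control, and Dcn was lower in the LE at D7 (-2.59, adjusted p = 0.0151). Endothelial Cdh5 was higher in the LE at D7 by 2.03 (adjusted p = 0.027), with the mean of 4 endothelial genes 0.83 to 1.15 above the median there and between -0.27 and 0.19 in control. Krt1 and Krt10 of the suprabasal layers were lower in the LE at D4 (-0.77 and -0.69). The part of these other cells in the cytoskeletal changes was not tested.

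β-Actin (Actb) and γ-actin (Actg1), the monomers of non-muscle filaments, moved little. Actb read 12.85 and 12.87 in the LE at D4, 12.79 and 12.79 in the hub and 12.78 and 12.82 in control, and 12.46 and 12.32, 12.33 and 12.27, and 12.31 and 12.26 at D7. Actg1 read 12.13 and 12.15, 12.16 and 12.11, and 12.22 and 12.14 at D4, and 11.60 and 11.56, 11.53 and 11.51, and 11.55 and 11.54 at D7. All their arrays of a day lay within a narrow band. The log2 fold change in the LE was 0.06 for Actb at D4 (SE 0.09, 95% interval -0.15 to 0.27, adjusted p = 0.803) and 0.10 at D7 (SE 0.09, -0.11 to 0.31, adjusted p = 0.59). For Actg1 it was -0.04 (SE 0.09, -0.24 to 0.16, adjusted p = 0.879) and 0.04 (SE 0.09, -0.16 to 0.24, adjusted p = 0.841). Both genes read near the top of the scale, Actb closer to it than Actg1. The array maxima were 13.04 to 13.11 at D4 and 12.34 to 12.54 at D7, and on LE D7 replicate 1 Actb was the maximum. Signals at that height can be saturated, which would flatten a change, so these values do not show that the 2 genes were stable. Pfn1 (12.47 and 12.42) and Tmsb10 (12.42 and 12.44), both called, read higher than Actg1 in the LE at D4. Whether any of these signals was saturated was not tested.

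Of the 5 genes for monomer binding and filament turnover, 3 were called higher in the LE on both days, as were 5.21% of all genes. Profilin (Pfn1), which loads monomers onto growing ends, rose by 0.37 and 0.34 (adjusted p = 0.0288 and 0.0413), with a standard error of 0.10. The D7 call was lost with the replicate block (adjusted p = 0.0582) and in 10 of 12 fits without an array (0.212 without LE D7 replicate 1), and that at D4 in 4 (0.127 without control D4 replicate 1). Cap1, which recycles monomers from old filaments, rose by 0.60 and 0.41 (adjusted p = 0.00251 and 0.0182, the latter 0.103 without control D7 replicate 1). Thymosin β10 (Tmsb10), which sequesters monomers, rose by 0.59 and 0.69 (adjusted p = 0.00463 and 0.00239) and kept both calls without any single array. Its relative thymosin β4 (Tmsb4x) was 0.15 at D4 and -0.32 at D7 and was not called, nor was the severing protein cofilin (Cfl1) at -0.14 and 0.00.

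Of 3 genes of branching, 2 were called in the LE at D4 and 1 at D7, against 8.3% and 9.25% of all genes. Arpc5, a subunit of the Arp2/3 complex, rose by 0.80 and 0.85 (adjusted p = 0.00201 and 0.00166), but with all its probe sets averaged it was 0.04 and 0.31 and not called (adjusted p = 0.93 and 0.279). Arpc2, another subunit, was 0.31 (adjusted p = 0.0579) and 0.26 (adjusted p = 0.112). Cortactin (Cttn), which stabilises branches, rose at D4 by 0.69 (adjusted p = 0.00561) and was 0.38 at D7 (adjusted p = 0.0737). Arpc5 in the hub was 0.18 and 0.32, neither called.

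Of 6 myosin II genes measured, 1 was called higher in the LE at D4 and 2 at D7, with 0 lower, where 8.3% and 9.25% of all genes were called higher. Myh9, the heavy chain of non-muscle myosin IIA, read 10.51 and 10.32 in the LE at D4, 9.90 and 9.73 in the hub and 9.47 and 9.48 in control. At D7 it read 9.30 and 9.21, 8.71 and 8.43, and 8.54 and 8.40. The LE arrays were above all others on each day, and hub and control overlapped at D7. Myh9 rose in the LE 1.91-fold (adjusted p = 0.00111) and 1.72-fold (adjusted p = 0.00336). The LE exceeded the hub 1.51-fold (adjusted p = 0.0273) and 1.61-fold (adjusted p = 0.0248), each lost in 3 of 12 fits without an array, with an adjusted p of 0.194 without hub D4 replicate 2 and 0.173 without hub D7 replicate 2.

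Myh10, the heavy chain of myosin IIB, pointed the other way. Its control arrays read 8.75 and 8.28 at D4 and 7.33 and 7.48 at D7, and its LE arrays 8.08 and 7.70, and 6.75 and 6.96. The hub arrays read 7.77 and 8.07 at D4 and 6.75 and 6.96 at D7, so both wound regions lay below control on both days and overlapped with each other. The LE values of Myh10 were -0.62 and -0.55 (adjusted p = 0.057 and 0.0871) and its hub values -0.60 and -0.55 (adjusted p = 0.247 and 0.249), and limma called 0 of these 4. At D4 the LE value was called lower after quantile normalization of all arrays (adjusted p = 0.0368), after centring on array medians (0.0445) and with dim genes left out (0.0494), and at D7 in a fit on that day's arrays (0.0309). Regulatory light chain Myl9 was 0.16 at D4 and rose at D7 by 0.72 (adjusted p = 0.00396), a difference between the days of 0.55 that was not called (adjusted p = 0.445). The light chains Myl6 and Myl12a (0.11 to 0.25) and the light chain kinase Mylk (-0.03 and -0.06) were not called in the LE.

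Of 3 other myosins, Myo5b, which carries recycling vesicles along actin, was called in the LE on both days. It read 7.26 and 6.08 in the LE at D4, 5.20 and 5.18 in the hub and 4.92 and 4.74 in control. At D7 it read 5.10 and 5.40, 4.11 and 3.81, and 3.63 and 3.93. The LE arrays were high on both days, but the 2 of D4 lay further apart than those of any other gene of the group, and hub and control overlapped at D7. Myo5b rose in the LE 3.58-fold (adjusted p = 0.00342) and 2.79-fold (adjusted p = 0.0107, and 0.0742 without LE D7 replicate 2). Its control and hub arrays lay below the array medians on both days. The folds of Myo5b over control and over the hub are thus over a level not shown to be above background. With its 3 probe sets averaged the rise was 0.85 and 0.56 on the log2 scale (adjusted p = 0.00293 and 0.0231). Against the hub it was 2.78-fold (adjusted p = 0.0243, and 0.125 without hub D4 replicate 2) at D4 and 2.46-fold (adjusted p = 0.057) at D7, which was called with the replicate block (adjusted p = 0.0438).

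Myo10, the motor of filopodial tips, rose by 0.86 at D4 (adjusted p = 0.00396), and its D7 value was 0.03. The difference between the days, -0.83 (SE 0.21), was not called (adjusted p = 0.313). Myo1e, a motor that links filaments to the membrane, was -0.01 and -0.13 and was not called.

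In the adhesion plaque, vinculin (Vcl) rose alongside Pdlim7 and talin and zyxin were not called. Vcl, which reinforces the bond between talin and actin, read 11.38 and 11.19 in the LE at D4 against 10.69 and 10.59 in the hub and 10.47 and 10.41 in control. At D7 it read 10.38 and 10.17, 9.59 and 9.61, and 9.57 and 9.62, with the LE above the rest and the hub arrays within the range of control. The rise of Vcl over control was 0.85 and 0.67 (adjusted p = 0.000958 and 0.0038), with a standard error of 0.11. Against the hub it was 0.64 (adjusted p = 0.0108, and 0.0932 without hub D4 replicate 2) and 0.67 (adjusted p = 0.0166, and 0.131 without LE D7 replicate 1). Talin-1 (Tln1), which joins integrins to filaments, was 0.36 (adjusted p = 0.107) and -0.02, and zyxin (Zyx), a sensor of tension on them, was -0.10 and -0.15.

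Anillin (Anln), a scaffold of the contractile ring in dividing cells, was near 2-fold in both wound regions at D4 without being called. Its LE value was 1.01 and its hub value 0.99, each with a standard error of 0.36 (adjusted p = 0.0995 and 0.317), and at D7 they were -0.32 and -0.47. In control Anln read 6.28 and 7.23 at D4 and 7.74 and 6.69 at D7, so the 2 control arrays lay about as far apart as the change at D4. Of 7 other cytokinesis genes 1 was called in the LE at D4 (Racgap1, 1.35, adjusted p = 0.0446) and 0 in the hub (5 higher unadjusted in limma), with medians of 0.70 and 0.87. At D7 limma called 0 in either region (1 lower unadjusted in the LE and 0 in the hub). Over all genes, the share called higher in the LE was 8.3% (D4) or 9.25% (D7). For the hub that share was 0.222% (D4) or 0.591% (D7). At such shares, calls among 7 genes are too few to tell this list from all genes.

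The study's methods asked for more than 2-fold in every replicate, and 6 of the 34 genes met this in the LE on each day, namely Actn1, Fscn1, Cald1, Tpm2, Myo5b and Pdlim7. For this rule each array was set over the reference array with the same replicate number on the same day. The labels do not say that such arrays share animals. Over all genes 2.26% passed upward at D4 and 1.83% at D7. In the hub Fscn1, Cald1 and Pdlim7 passed at D4 (0.357% of all genes) and Fscn1 and Cald1 at D7 (0.328%). In the LE against the hub Fscn1, Cald1, Tpm1 and Pdlim7 passed at D4 (1.08%) and Fscn1, Cald1 and Pdlim7 at D7 (0.597%).

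Single probe sets of a gene did not always move together. Of the 44 sets not used, 19 were called higher and 2 lower in the LE at D4, against 17 and 2 at D7, where 13.1% and 13.6% of all single sets were called. The 4 sets of Fscn1 were all called in the LE, from 0.69 to 3.57 at D4 and from 0.88 to 4.52 at D7, and so were the 3 sets of Actn1. Of the 5 sets of Cald1, 3 were called, from 2.73 to 4.80 at D4, and the other 2 were 0.46 and 0.55. The set used for Tpm1 rose by 1.06 and 0.81, while another of its 3 sets was called lower, at -1.80 (adjusted p = 0.0165) and -1.41 (adjusted p = 0.0471). The second set of Myl6 was called higher (0.44 and 0.42) and another lower (-1.30 and -0.86), with the set used not called. The second set of Cfl1 was called higher (0.39 and 0.64) where the set used was not. For Myo5b 1 of 3 sets was called. The annotation gives no position of a set within its transcript, and whether the sets read different transcripts was not tested.

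**Figure D4:**
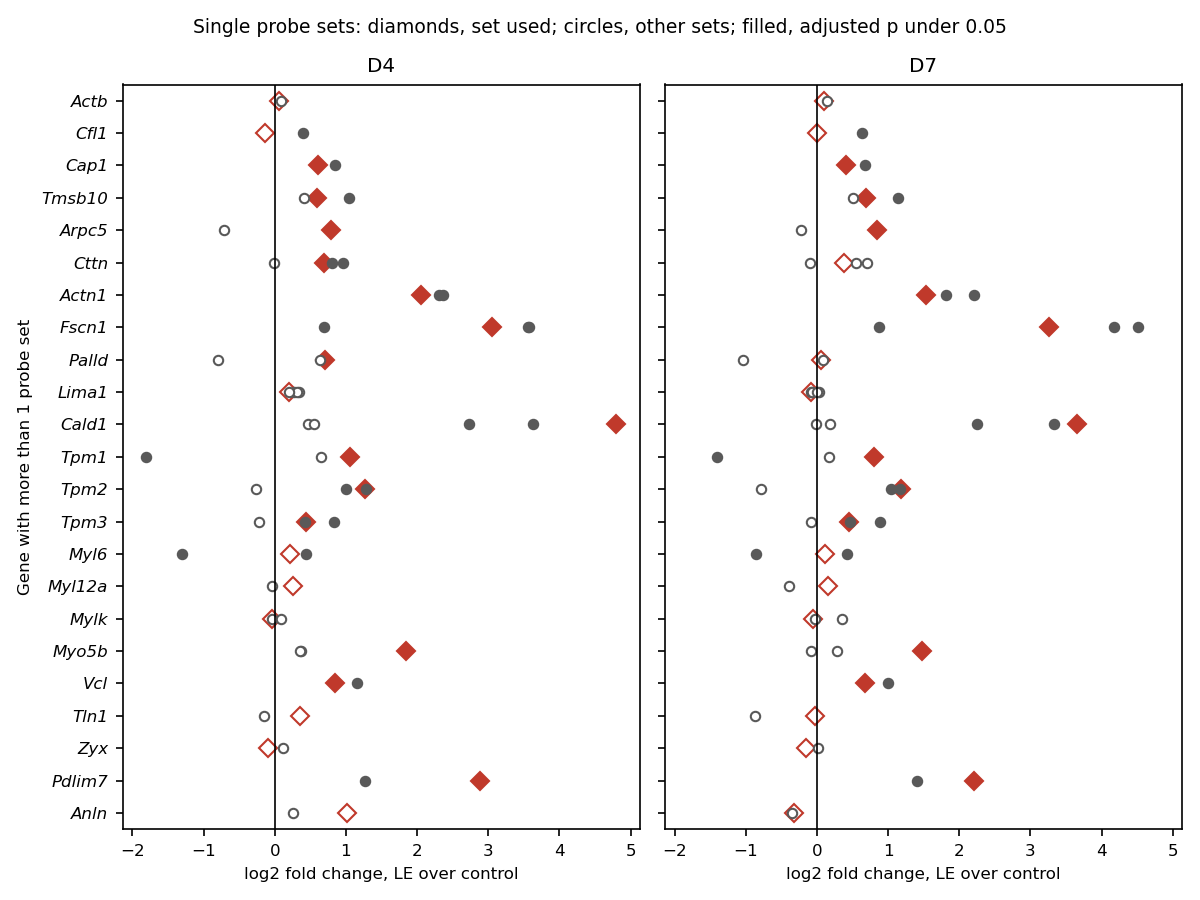
Log2 fold change of the LE over control (horizontal axis) at D4 (left) and D7 (right) for every probe set of the 23 genes with more than 1; diamonds are the sets used, circles the others, and a filled symbol has an adjusted p under 0.05. One other set of Tpm1 lies at -1.80 and -1.41 and one of Myl6 at -1.30 and -0.86, to the left of the sets used.

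Further genes of the pathway were counted in lists taken from general knowledge. Of 79 measured, 19 were called higher and 5 lower in the LE at D4, against 14 and 9 at D7, with medians of 0.29 and 0.13. The shares of all genes were 8.3% higher and 5.83% lower at D4 and 9.25% and 5.37% at D7, so the share lower at D4 was near that of all genes. In the hub limma called 0 at D4 (11 higher and 8 lower unadjusted) and 1 at D7, the formin Fmnl2 at 1.20 (adjusted p = 0.00883). Fmnl2, which elongates filaments at protrusions, rose in the LE by 1.60 and 2.01 (adjusted p = 0.000123 and 4.9e-05). Fhod1 (1.26) and Diaph3 (0.63), other formins, were called at D4 and Daam1 (-0.39) and Fhod3 (-1.15) were lower at D7, of 10 formins measured.

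Of 14 capping, severing and monomer-binding genes, 3 were higher and 1 lower at D4, against 3 and 2 at D7. The shares of all genes were 8.3% higher and 5.83% lower at D4 and 9.25% and 5.37% at D7. The 1 of 14 lower at D4 was near the share of all genes. Gelsolin (Gsn), which severs and caps filaments, fell by 1.03 and 1.00 (adjusted p = 0.00031 and 0.000449) and lay below the hub too (-0.65 and -0.63). Supervillin (Svil) was lower at D7 (-0.87). Of 10 further genes of the Arp2/3 complex and its activators, 3 were higher on each day (Actr3, Arpc4 and Abi1 at D4, and Arpc1a, Arpc4 and Brk1 at D7), and of 6 further myosins Myo9b was higher on both (0.77 and 0.59).

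Of 14 adhesion plaque genes outside the 34, 4 were called higher and 2 lower in the LE at D4 and 2 and 2 at D7. The shares of all genes were 8.3% higher and 5.83% lower at D4 and 9.25% and 5.37% at D7. Tensin-1 (Tns1), which links integrins to actin in mature adhesions, fell in the LE by 2.48 and 2.15 (adjusted p = 2.39e-05 and 6.45e-05), and Tns3 by 0.81 and 1.37. Vasp (0.84 and 0.45) and Enah (0.54 and 0.57), which extend filaments at the front, rose on both days, and Fermt2 and Parva (0.74 and 0.59) at D4. Of 5 genes of calponins and serum response factor, Cnn2 (1.04 and 0.94) and Cnn3 (1.24 and 1.45) were higher on both days and Mrtfa (0.84) at D4. Srf itself fell by 0.47 and 0.51 (adjusted p = 0.0223 and 0.016).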

How the data were processed

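RNA of 300 sorted cells per sample was amplified to cDNA and hybridised to mouse expression arrays, 1 per sample. The authors deposited log2 intensities that they had normalized by robust multi-array averaging (RMA), with no version given in the sources used here. D4 and D7 arrays stand on different levels, so levels were compared within a day. Starting from these values, probe sets annotated to 1 gene were kept and the brightest one, by its mean over the 12 arrays, stood for a gene. Over 17097 genes a single limma model (limma 3.58.1, R 4.3.3) of 6 groups gave moderated log2 fold changes, their SE and p-values, adjusted by Benjamini-Hochberg over all genes and called at an adjusted p under 0.05. The model was tested on simulated data. The differences between replicates 1 and 2 of a group, over all genes, were correlated between the groups of a day. This gave r of 0.170 to 0.245 at D4 and 0.0023 to 0.067 at D7. The labels tie replicate numbers to no shared animal, so in the model they entered only as an alternative block. Described in full are genes called in the LE against control or hub with a log2 fold change of at least 1, called in the hub, or named in the study, with Actb and Actg1, and other genes by value. Outside this rule, Vcl and Myh10 were given on every array, Tmsb4x on LE and control arrays and Anln on control arrays. All genes and lists were chosen with earlier results of these data known. One pathway list, counted in the total of further genes, is not reported here by itself. Figures were drawn in matplotlib 3.10.9. Other settings are given at the end.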

Additional observations from a re-analysis of the deposited data

Results flagged for a closer look

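Tmsb4x, which codes for the monomer-sequestering thymosin β4, was the member whose LE and control arrays separated in opposite directions on the 2 days, a difference that did not pass adjustment over all genes. Its log2 fold change was 0.15 at D4 and -0.32 at D7, and neither was called. The arrays read 11.47 and 11.55 in the LE and 11.30 and 11.41 in control at D4, and 10.10 and 9.82 against 10.24 and 10.31 at D7, so the LE lay above control on the first day and below it on the second. The difference between the days was -0.47 (SE 0.18, unadjusted p = 0.0261 in limma), with an adjusted p of 0.566.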

How the results depend on the processing

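With 2 arrays a group, calls near the threshold turned on single arrays, and 23 of 63 called pairs of a gene and a comparison were called under every alternative and without any single array. Without 1 array, limma called 17 to 19 of the 34 genes in the LE at D4, 11 to 16 at D7, 1 to 4 in the hub at D4, 1 to 3 at D7, and against the hub 4 to 14 at D4 and 0 to 10 at D7. For the fold rule, leaving out a replicate number from both groups leaves 1 pair of arrays. A count over 1 pair can only stay or rise, so how the fold rule depends on single arrays was not tested. In a fit on the arrays of D4 alone the hub had 1 call and the LE against the hub 5. With a trended and robust prior the D7 counts were 4 and 15. With all probe sets of a gene averaged, the fold rule gave 1 gene in the hub at D7 and, against the hub, 2 at D4 and 1 at D7, and Tpm1 in the LE turned to -0.032 and -0.144. Of the 63 calls, fits on each day's arrays alone lost 15 and quantile normalization of all 12 arrays 3. The cause of these shifts was not tested. The replicate block gave 19, 15, 4, 3, 14 and 10 calls in the order of the first list, which changed each hub count by 1. It lost Pfn1 (LE at D7) and Tpm2 (against the hub at D7) and gained Actn1 (hub at D4), Pdlim7 (hub at D7), Arpc5 and Myo5b (against the hub at D7). In the tests between the days 0 genes were called without any single array.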
